A study of Mus musculus with 2 samples.

Results

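The 32 genes described here encode the mitochondrial pyruvate carrier, the pyruvate dehydrogenase complex with its kinases and phosphatases, pyruvate carboxylase, the enzymes of the tricarboxylic acid (TCA) cycle listed below, the malic enzymes, and the export and cleavage of citrate. They were chosen by symbol, and their rows in both gene tables were found through the GENCODE mouse annotation. All 32 were present among 43346 gene rows. The data are 2 paired-end RNA sequencing libraries of polyadenylated RNA, which the labels number as biological replicates 1 and 2, and both belong to the same group. They came from G1E-ER4, a single immortalized line of mouse erythroid cells without a functional Gata1 gene of their own. The line expresses a fusion of the transcription factor GATA1 with the ligand-binding domain of the estrogen receptor. All cells had been exposed for 30 h to 10 nM 17beta-estradiol, the ligand that switches the fusion on. No untreated library was analysed here, so levels, ratios between genes, transcript use and the difference between the replicates are given, and no effect of estradiol.

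Pyruvate made by glycolysis enters mitochondria through the carrier MPC, where the pyruvate dehydrogenase complex converts it to acetyl-CoA or pyruvate carboxylase converts it to oxaloacetate. The TCA cycle oxidizes acetyl-CoA through citrate, isocitrate, 2-oxoglutarate and succinyl-CoA, and citrate that leaves the mitochondria feeds lipid synthesis. In erythroid cells succinyl-CoA has a further use, because the erythroid enzyme ALAS2 joins it to glycine in the first step of heme synthesis.

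The libraries held 73681318 and 56056404 expected counts, which are estimated fragment counts, in replicates 1 and 2. Levels are TPM, an abundance corrected for transcript length and for library size. All 12 erythroid marker genes reached 1 TPM in both libraries. Myeloid markers summed to 0.32 TPM in replicate 1 and 10.9 TPM in replicate 2, where Mpo, Elane and Prtn3 carried nearly all of it and S100a8 had 0 counts. Progenitor markers summed to 24.1 and 35.6 TPM, nearly all Gata2, with Cd34 and Flt3 at or below 3 counts. Megakaryocyte markers summed to 21.8 and 17.8 TPM, mostly Gp1ba, mast cell markers to 0.03 and 0 TPM, and lymphoid markers to 0.46 and 0.06 TPM. The part of the myeloid signal in any difference between the libraries was not tested. In bulk RNA, fewer cells of a type and less RNA per cell cannot be told apart.

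Of the 32 genes, 29 (90.6%) reached 1 TPM in both libraries, against 35.3% of 21474 protein-coding genes. At 10 TPM the count was 17 (53.1%), against 20.4% of protein-coding genes, and at 100 TPM it was 3 (9.38%), against 4.32%. Set against the 7570 protein-coding genes at 1 TPM or more in both libraries, the shares at 10 and 100 TPM were close to the background, which was 57.7% and 12.3%. The median of the mean TPM was 14.6 for the 32 genes, 0.015 for all protein-coding genes and 15.4 for the expressed ones. Together the 32 genes held 0.125% of all TPM in replicate 1 and 0.129% in replicate 2. Mdh2, Slc25a1 and Dlst alone made up 50.1% and 54.6% of that sum. The genes at the low end were Pdk4 with 0 counts, Idh2 and Pdp1. Of 30 neighbouring pairs in the order of mean TPM from Mdh2 down to Idh2, 9 had library values that did not overlap and 21 overlapped.

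**Figure D1:**
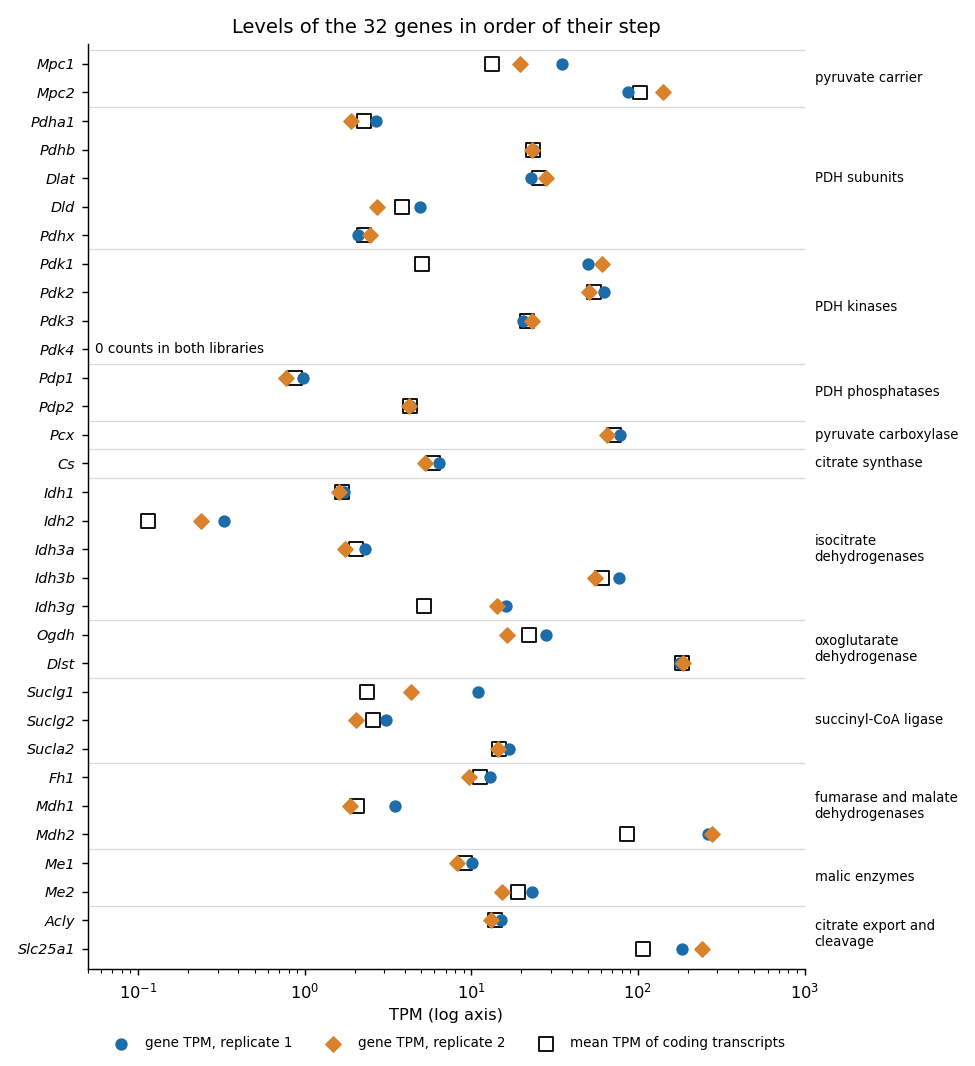
TPM of the 32 genes on a log axis, from the pyruvate carrier at the top to citrate export and cleavage at the bottom. Filled symbols are the gene values of replicates 1 and 2, and open squares are the mean TPM of transcripts annotated as coding. Mdh2, Slc25a1 and Dlst lie to the right of 100 TPM in both libraries, Idh2 lies below 1 TPM, and the open square of Pdk1 lies far left of its gene values.

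Sequences are shown for 3 genes whose transcripts differ in a way the results below turn on. All are mouse mm10 with GENCODE M21 gene models, read 5′ to 3′ on the coding strand. Ogdh encodes the E1 subunit of the 2-oxoglutarate dehydrogenase complex, and its main coding transcripts carry 1 of 2 alternative exons on chromosome 11, plus strand. The exon of Ogdh-201 and Ogdh-204 spans 103 bases (chr11:6316978-6317080) and that of Ogdh-202 spans 91 bases (chr11:6316765-6316855), a difference of 12 bases. No capitals are used, since 1 exon replaces the other as a whole.
Ogdh-201 and Ogdh-204 exon: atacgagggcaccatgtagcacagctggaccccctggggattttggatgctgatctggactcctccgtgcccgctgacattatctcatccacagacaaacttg
Ogdh-202 exon: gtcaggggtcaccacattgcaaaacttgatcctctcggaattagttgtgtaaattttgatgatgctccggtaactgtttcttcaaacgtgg
Mdh2 encodes the mitochondrial malate dehydrogenase, on chromosome 5, plus strand. The exon chr5:135784184-135784267 is joined to the exon chr5:135785929-135786038 in the coding transcript Mdh2-201, whereas Mdh2-202, annotated as a retained intron, runs on into the intron for 347 bases and ends there. Capitals mark the first 30 bases after that exon, which are the next exon in Mdh2-201 and intron in Mdh2-202 (chr5:135784238-135784297 as printed).
Mdh2-201 junction: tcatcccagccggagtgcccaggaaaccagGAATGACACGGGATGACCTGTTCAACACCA
Mdh2-202 exon and intron: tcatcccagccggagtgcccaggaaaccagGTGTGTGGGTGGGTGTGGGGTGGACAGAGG
Acly encodes ATP citrate lyase, on chromosome 11, minus strand. Its transcript Acly-203 holds an exon of 30 bases (chr11:100503160-100503189) that Acly-201 skips, shown in capitals with 20 bases of the adjoining exons on each side.
Acly-203 exon: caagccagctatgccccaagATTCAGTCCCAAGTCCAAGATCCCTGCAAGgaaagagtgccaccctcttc

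Pyruvate entry was led by Mpc2. The subunit gene Mpc2 (chromosome 1, 165460637 to 165481214, plus strand) reached 86.9 and 140 TPM in replicates 1 and 2, and its partner Mpc1 (chromosome 17, 8282904 to 8297661, plus strand) had 35.2 and 19.5 TPM. The carrier is a heterodimer of both subunits. The gene values moved in opposite directions between the libraries. The log2 ratio of Mpc2 over Mpc1 within a library was therefore 1.28 in replicate 1 and 2.79 in replicate 2, with a mean of 2.03 and a 95% interval of 1.33 to 2.74. Ratios here are on the log2(TPM + 1) scale, which understates the difference of low genes, and their intervals take each gene's spread between the libraries as moderated over 8004 genes, with the sides treated as independent. The interval from the spread of this ratio itself was far wider, -7.53 to 11.6. The retained-intron transcript Mpc1-207 held 60.9% of Mpc1 TPM in replicate 1 and 33.2% in replicate 2, and the TPM of coding Mpc1 transcripts was 13.7 and 13.0. The longer retained-intron transcript Mpc2-202 held 15.3% of Mpc2 TPM in replicate 1 and 3.03% in replicate 2, from 2856 and 696 counts. Coding Mpc2 TPM was 71.65 and 134.94. The leading Mpc1 coding transcript Mpc1-208 shared 44.2% of its 50-base words with transcripts of other genes, most of all the pseudogene Mpc1-ps. Such shares here use GENCODE M21 models, which can differ from the models behind the counts.

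The subunits of the pyruvate dehydrogenase complex differed in level by 11.2-fold between the lowest and the highest mean. Dlat, the E2 acetyltransferase that forms the core, had 22.9 and 28.2 TPM, and Pdhb, the E1 beta subunit, had 23.6 and 22.98 TPM. Pdha1 (chromosome X, 160122209 to 160138413, minus strand), the X-linked E1 alpha subunit that carries the regulatory phosphorylation sites, had 2.69 and 1.89 TPM. The 2 E1 subunits form a heterotetramer, yet Pdha1 over Pdhb was -2.74 and -3.05 on the log2 scale, with a mean of -2.90 and an interval of -3.34 to -2.45. Pdhx, the E3-binding protein, had 2.10 and 2.46 TPM, and Dlat over Pdhx averaged 3.01 with an interval of 2.57 to 3.46. Dld, the E3 dihydrolipoyl dehydrogenase shared with the 2-oxoglutarate dehydrogenase complex, had 4.93 and 2.72 TPM from 766 and 322 counts. Both high subunits thus lay above all 3 low ones in each library. Pdhb-201 shared 30.3% of its 50-base words with the gene model Gm6123, and Pdha1-201 shared 16.9%, mostly with Map3k15, which overlaps Pdha1 on the opposite strand and had 4 counts in each library.

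Among the kinases that phosphorylate and switch off E1 alpha, Pdk1, Pdk2 and Pdk3 were present and Pdk4 was not detected. Pdk2 (chromosome 11, 95026258 to 95041354, minus strand) reached 62.5 and 50.5 TPM in replicates 1 and 2. Pdk1 (chromosome 2, 71873224 to 71903858, plus strand), a target of hypoxia-inducible factor, had 50.2 and 60.4 TPM. Pdk3 had 20.3 and 23.2 TPM. Pdk4 (chromosome 6, 5483351 to 5496309, minus strand), the kinase known to be induced by fasting in muscle and liver, had 0 counts in both libraries. Such a zero is compatible with as many as 3 counts per library, or 0.0224 TPM in replicate 1 and 0.0295 TPM in replicate 2. Against that floor Pdk2 was at least 2790-fold higher in replicate 1 and at least 1710-fold higher in replicate 2. The library ranges of Pdk1 and Pdk2 overlapped, and their log2 ratio of -0.03 had an interval of -0.48 to 0.42. Pdk3 lay below Pdk2 by a log2 ratio of -1.33, with an interval of -1.78 to -0.88, which the spread of the ratio itself widened to -4.39 to 1.72.

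The order of Pdk1 and its relatives depended on what was counted. The processed transcript Pdk1-204, of 1060 bases and without an annotated coding sequence, held 77.8% and 79.7% of Pdk1 TPM from 2633 and 2450 counts, whereas the coding Pdk1-201, of 5185 bases, held 1876 and 1465 counts. Pdk1 thus made up 41.4% ± 5.19 of the kinases' gene TPM, against 42.3% ± 6.59 for Pdk2 and 16.3% ± 1.40 for Pdk3 (SD, n = 2). Over coding transcripts alone those shares were 6.25% ± 0.491 for Pdk1, 66.9% ± 4.75 for Pdk2 and 26.9% ± 4.26 for Pdk3. Coding Pdk1 over Pdk2 was -3.19 on the log2 scale, with an interval of -3.61 to -2.76. Transcript GC content, a plain mean over all annotated transcripts of a gene, was 48.0% in Pdk1, 40.6% in Pdk3 and 57.0% in Pdk2. Adjusting levels for it put both others above Pdk2, by 1.28 for Pdk1 and 0.51 for Pdk3.

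The phosphatases that switch the complex back on were low. Pdp2 had 4.31 and 4.23 TPM, and Pdp1, the calcium-stimulated isoform, had 0.98 and 0.77 TPM. Pdp1 over Pdp2 was -1.49 on the log2 scale, with an interval of -1.89 to -1.10. The 2 phosphatase genes summed to 5.29 and 5.0 TPM, and the 5 subunit genes to 56.3 and 58.3 TPM. The 4 kinase genes summed to 133 and 134 TPM. Pdk1 entered that sum with 50.2 and 60.4 TPM, of which coding transcripts held 5.0 and 5.11 TPM. Protein and activity were not measured.

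The entry into the cycle through oxaloacetate had higher RNA levels than Pdha1. Pcx (chromosome 19, 4510472 to 4621752, plus strand), pyruvate carboxylase, reached 78.4 and 65.2 TPM in replicates 1 and 2, all of it assigned to the coding Pcx-201. Pcx over Pdha1 was 4.43 and 4.52 on the log2 scale, with a mean of 4.47 and an interval of 4.02 to 4.93. Set against Pdhb and Dlat, at 22.9 to 28.2 TPM, Pcx was also higher in each library. That gap narrowed after adjustment for transcript GC content. Adjusted levels were 51.3 and 40.6 TPM for Pcx, 31.9 and 39.5 TPM for Dlat, and 36.3 and 35.6 TPM for Pdhb. Cs, citrate synthase, which joins oxaloacetate to acetyl-CoA, had only 6.42 and 5.28 TPM. Ldha, lactate dehydrogenase A, which is no member but competes for pyruvate, had 1603 and 1094 TPM, and Ldha over Pdha1 was 8.66 with an interval of 8.12 to 9.21.

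Aco1, the cytosolic aconitase that doubles as iron regulatory protein 1 and is not among the 32, had 11.96 and 9.51 TPM. Isocitrate oxidation spread over a 233-fold range of mean levels. Idh3b (chromosome 2, 130279309 to 130284547, minus strand), the beta subunit of the NAD-linked enzyme, had 77.3 and 55.4 TPM, and Idh3g, the gamma subunit, had 16.1 and 14.2 TPM. Idh3a, the catalytic alpha subunit, had 2.30 and 1.74 TPM. Idh3a thus made up 2.42% ± 0.0244 of the TPM of the 3 subunits, against 79.2% ± 2.19 for Idh3b and 18.4% ± 2.16 for Idh3g (SD, n = 2). Idh3a over Idh3b was -4.47, with an interval of -4.95 to -3.98, although 2 alpha subunits are needed for each beta and gamma subunit in the enzyme. The processed transcript Idh3g-207 held 58.2% and 63.8% of Idh3g TPM, and over coding transcripts Idh3g over Idh3b was -3.29 instead of -2.04. Nop56 overlaps Idh3b on the opposite strand at 11.2 and 9.14 TPM, and the strand setting of the counting is not known from the sources.

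The NADP-linked isocitrate dehydrogenases were low. Idh1, the cytosolic enzyme, had 1.73 and 1.60 TPM. Idh2 (chromosome 7, 80094846 to 80115392, minus strand), the mitochondrial enzyme that is highly expressed in heart, had 0.33 TPM from 38 counts in replicate 1 and 0.24 TPM from 21 counts in replicate 2. The exact 95% Poisson intervals of those Idh2 levels were 0.232 to 0.449 and 0.149 to 0.368 TPM, and such intervals and floors cover counting error only. Idh1 over Idh2 was 1.05 with an interval of 0.70 to 1.41, and Idh2 over Idh3a was -1.23 with an interval of -1.62 to -0.84.

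The 2-oxoglutarate dehydrogenase complex, which makes succinyl-CoA, had a high core and a lower E1. Dlst (chromosome 12, 85110833 to 85134845, plus strand), the E2 succinyltransferase core, had 178 and 188 TPM, all in its 1 annotated transcript. Ogdh (chromosome 11, 6291633 to 6356642, plus strand), the rate-setting E1 subunit, had 28.04 TPM from 7909 counts in replicate 1 and 16.3 TPM from 3448 counts in replicate 2. Ogdh over Dlst was -2.62 in replicate 1 and -3.45 in replicate 2, with a mean of -3.04 and an interval of -3.61 to -2.46. The interval from the spread of the ratio itself, which rests on these values alone, was -8.25 to 2.18. Dlst also lay above Dlat, the E2 gene of the pyruvate dehydrogenase complex, in each library.

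The Ogdh exons shown above were both used. Transcripts with the 103-base exon, Ogdh-201 and Ogdh-204, held 63.2% of Ogdh TPM in replicate 1 and 53.9% in replicate 2, from 5241 and 1985 counts. The transcript with the 91-base exon, Ogdh-202, held 29.6% and 38.8%, from 2449 and 1428 counts. Ogdh-201 led in replicate 1 and Ogdh-202 led in replicate 2. With 1 library on each side this shift has no replicate check.

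Succinyl-CoA ligase, which turns succinyl-CoA into succinate, pairs the alpha subunit SUCLG1 with either of 2 beta subunits. Sucla2 (chromosome 14, 73525319 to 73596142, plus strand), the ATP-forming beta subunit, had 16.7 and 14.5 TPM, and Suclg2 (chromosome 6, 95473009 to 95718800, minus strand), the GTP-forming one, had 3.08 and 2.03 TPM. Sucla2 thus held 86.1% ± 2.32 of the TPM of the beta subunits (SD, n = 2). The log2 ratio of Sucla2 over Suclg2 was 2.12 and 2.36, with a mean of 2.24 and an interval of 1.75 to 2.73, and it kept its sign in all alternatives computed. Suclg2-201 shared 29.3% of its 50-base words with the gene model Gm15163. Suclg1 (chromosome 6, 73248382 to 73276911, plus strand) had 11.02 TPM from 598 counts in replicate 1 and 4.32 TPM from 205 counts in replicate 2. Its log2 ratio to Sucla2 was -0.56 and -1.54, with a mean of -1.05 and an interval of -1.84 to -0.26. That interval held 0 when the spread was fitted without a filter on low values, at -2.25 to 0.15.

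Much of the Suclg1 level lay outside its coding transcript. Suclg1-202, annotated for nonsense-mediated decay and 670 bases long, held 48.6% and 43.1% of Suclg1 TPM. The coding Suclg1-201 held 26.6% and 40.9%, from 298 and 136 counts. Over coding transcripts Suclg1 had 2.93 and 1.77 TPM, and Suclg1 over Suclg2 was -0.09 with an interval of -0.60 to 0.42, against 1.19 with an interval of 0.38 to 1.99 for gene TPM. The gene TPM interval held 0 without a filter on low values, at -0.092 to 2.46, and with the spread of the ratio itself, at -3.56 to 5.93. Coding Suclg1 over Sucla2 was -2.25.

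**Figure D2:**
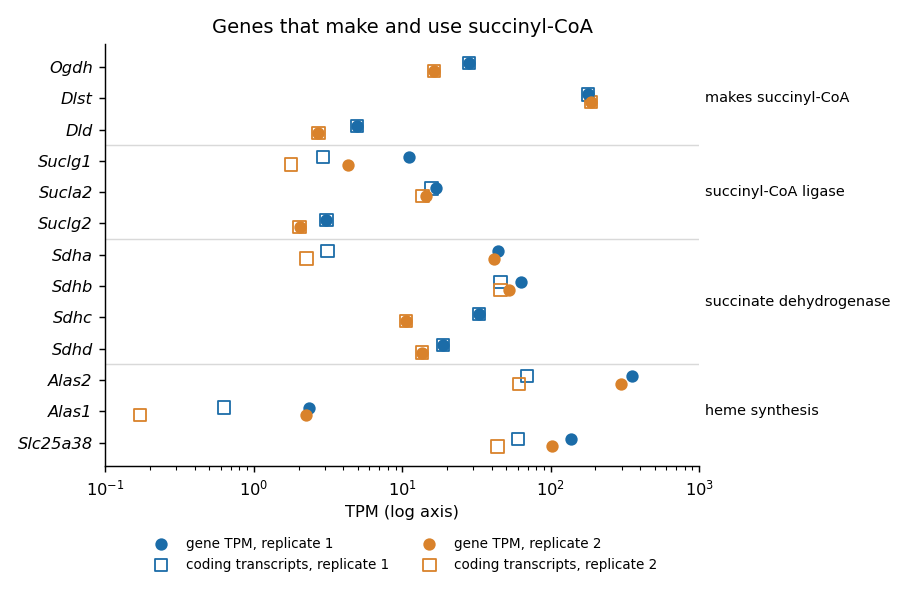
TPM on a log axis of genes that make succinyl-CoA, convert it or use it in heme synthesis, by replicate. Circles are gene values and open squares are coding transcripts alone. A gap between them is RNA assigned to transcripts not annotated as protein coding, among them those annotated for nonsense-mediated decay. Dlst lies at 178 and 188 TPM, and Alas2 falls to 68.8 and 60.9 TPM when coding transcripts alone are counted.

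The enzyme that draws on succinyl-CoA for heme exceeded the ligase genes. Alas2, the erythroid 5-aminolevulinate synthase, had 352 and 299 TPM, and Alas1, its housekeeping relative, had 2.36 and 2.24 TPM. Slc25a38, the mitochondrial glycine carrier, had 137 and 102 TPM, of which coding transcripts held 60.2 and 43.7 TPM. Alas2 over Suclg1 was 5.35, with an interval of 4.57 to 6.12, and Alas2 over Ogdh was 3.86, with an interval of 3.27 to 4.45. The interval of Alas2 over Suclg1 from the spread of that ratio itself held 0, at -0.62 to 11.3. Over coding transcripts alone, Alas2 had 68.8 and 60.9 TPM. These ratios were then 4.32 and 1.55, with intervals of 3.85 to 4.78 and 1.00 to 2.11. On that scale Alas2 lay below Dlst in each library. RNA ratios do not give the flux into heme.

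Of 8 genes listed for the use of succinyl-CoA in heme synthesis, 8 reached 1 TPM and 7 reached 10 TPM in both libraries. The background for this and the next lists is 35.3% of protein-coding genes at 1 TPM and 20.4% at 10 TPM. Alad, the next enzyme of heme synthesis, averaged 1017 ± 267 TPM, the carrier gene Slc25a39 909 ± 33.9 TPM and Abcb10 434 ± 27.9 TPM (SD, n = 2). The list's lowest members after Alas1 were Clpx, a mitochondrial unfoldase, at 25.9 ± 3.22 TPM and the protease gene Lonp1 at 93.3 ± 14.7 TPM. Of 14 genes for other sources and uses of succinyl-CoA, 6 reached 1 TPM and 4 reached 10 TPM. Bckdk, the kinase of the branched-chain ketoacid dehydrogenase complex, averaged 61.7 ± 29.8 TPM, Bckdha, its E1 alpha subunit, 61.5 ± 6.86 TPM and Pccb, a propionyl-CoA carboxylase subunit, 34.5 ± 4.57 TPM. Over coding transcripts Bckdk had 26.5 and 20.9 TPM. The other subunit genes of the branched-chain complex on the list lay between 0.33 and 1.28 TPM. Mmut, the methylmalonyl-CoA mutase that delivers succinyl-CoA from propionate, had 0.91 and 0.58 TPM. Dhtkd1 and Nudt7 had at most 3 counts in a library, and Oxct2a had 0 counts in both. A list of 6 genes covers lipoic acid and thiamine, whose cofactors both dehydrogenase complexes need, and also holds Pdpr. On it 3 reached 1 TPM and 0 reached 10 TPM. Pdpr, a regulator of pyruvate dehydrogenase phosphatase, averaged 6.21 ± 0.410 TPM and Lias, lipoic acid synthase, 2.67 ± 1.20 TPM (SD, n = 2). The lipoyltransferase genes Lipt2 and Lipt1 averaged 1.03 ± 0.375 and 0.18 ± 0.0424 TPM.

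Succinate dehydrogenase, the next step, is not among the 32 and was present in all 4 subunits. Sdhb had 63.1 and 52.3 TPM, Sdha 43.8 and 41.4 TPM, Sdhc 32.9 and 10.6 TPM, and Sdhd 18.7 and 13.5 TPM. Over coding transcripts Sdha, the flavoprotein subunit, had 3.13 and 2.26 TPM. Fh1, fumarase, had 13.0 and 9.72 TPM. Mdh2 (chromosome 5, 135778480 to 135790398, plus strand), which regenerates oxaloacetate, was the highest of the 32 with 264 and 276 TPM. Its cytosolic relative Mdh1 had 3.47 and 1.88 TPM, and Mdh2 over Mdh1 was 6.24 with an interval of 5.72 to 6.76.

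Most Mdh2 TPM was assigned to the intron-retaining sequence shown above. Mdh2-202 held 63.6% of Mdh2 TPM in replicate 1 and 70.8% in replicate 2, from 7120 and 6197 counts. The spliced Mdh2-201 held 34.6% and 28.9%, from 8845 and 5881 counts. Mdh2-202 is 725 bases long against 1456 bases for Mdh2-201, so a count in it adds more TPM. Over coding transcripts Mdh2 averaged 85.6 ± 7.90 TPM, against 270 ± 9.14 TPM for the gene (SD, n = 2), and Mdh2 over Mdh1 was 4.83 with an interval of 4.41 to 5.25.

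Me2, the mitochondrial NAD-linked malic enzyme, had 23.1 and 15.2 TPM, and Me1, the cytosolic NADP-linked one, had 10.1 and 8.24 TPM. Me2 over Me1 was 0.96 with an interval of 0.40 to 1.53, which the spread of the ratio itself widened to -1.005 to 2.93. Me1-201 shared 33.4% of its 50-base words with other genes, most with the gene model Gm7049. In citrate export, Slc25a1 (chromosome 16, 17925223 to 17928219, minus strand), the citrate carrier, had 184 and 241 TPM. Acly (chromosome 11, 100476353 to 100528000, minus strand), which splits citrate in the cytosol, had 15.1 and 13.0 TPM. Acly over Slc25a1 was -3.82 with an interval of -4.29 to -3.34, and Acly over Cs was 1.14 with an interval of 0.66 to 1.62. The retained-intron transcripts Slc25a1-204 and Slc25a1-205 held 25.4% and 18.2% of Slc25a1 TPM in replicate 1, and 20.3% and 29.3% in replicate 2. Over coding transcripts Slc25a1 averaged 107 ± 12.1 TPM (SD, n = 2) and Acly over Slc25a1 was -2.87. Acly-203, with the 30-base exon shown above, held 16.7% and 19.97% of Acly TPM from 798 and 634 counts, and Acly-201, without it, held 43.4% and 28.5% from 2064 and 898 counts. The shorter Acly-202 took 38.6% and 48.9%.

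**Figure D3:**
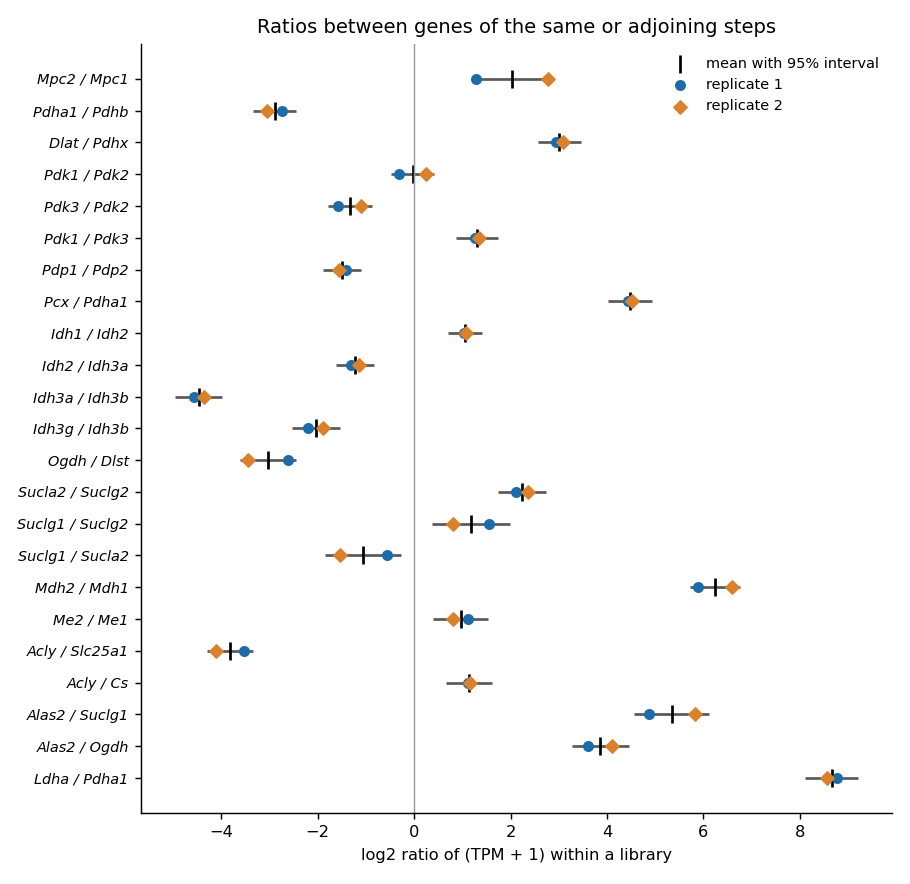
Log2 ratio of (TPM + 1) between 2 genes within each library for the 23 pairs with counts on both sides. Symbols are the libraries, and ticks with lines are the mean and its 95% interval. Intervals of 22 pairs lie wholly on 1 side of 0, and that of Pdk1 over Pdk2 spans it.

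Of the 23 pairs with counts on both sides, 22 had intervals that excluded 0, with the first gene higher in 13 and lower in 9. The share over arbitrary pairs of expressed genes was not computed, so this count does not set these pairs apart. The pairs within 1 enzyme or family covered most of the span, from -4.47 for Idh3a over Idh3b to 6.24 for Mdh2 over Mdh1. The widest gaps between the libraries were those of Mpc2 over Mpc1, at 1.28 and 2.79, and of Suclg1 over Sucla2, at -0.56 and -1.54. These include genes with a large share of TPM in transcripts not annotated as protein coding. Adjusting levels for transcript GC content moved several ratios by more than 1.5-fold without turning them. Pcx over Pdha1 became 3.27 with an interval of 2.79 to 3.75, Mdh2 over Mdh1 5.16, Idh3a over Idh3b -3.68, Acly over Slc25a1 -3.10 and Ldha over Pdha1 8.01. Idh1 over Idh2 became 2.48, Idh2 over Idh3a -2.73, Suclg1 over Sucla2 -1.73 and Acly over Cs 0.54. The adjustment took the log2 value of Idh2 below 0 in both libraries, which no TPM can give. The adjusted ratios with Idh2 are thus larger than possible levels allow. A pseudocount of 0.1 TPM moved 3 ratios of low genes as far, to 2.21 for Idh1 over Idh2, -2.46 for Idh2 over Idh3a and -2.17 for Pdp1 over Pdp2. Coding transcripts alone put Mpc2 over Mpc1 at 2.80. Across the 32 genes the log2 level correlated with transcript GC content at Pearson r = 0.349, beside 0.301 across 7570 expressed genes, as a description over genes that share both libraries.

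Coding transcripts held at least 90% of the TPM in both libraries for 21 of the 31 genes with counts. They held less than 50% in both libraries for 5, namely Pdk1, Idh2, Idh3g, Suclg1 and Mdh2. Mpc1, Mpc2, Idh3b, Mdh1 and Slc25a1 lay between or differed between the libraries. Of 23 genes with 2 or more annotated transcripts, 19 had the same leading transcript by TPM in both libraries, and 17 were led by a coding transcript in both. By counts, which do not favour short transcripts, both numbers were 20. The same shares over all genes were not computed, so these numbers do not set the 32 genes apart. For 23 of the 32, no other gene shared a 50-base word with the transcript that led by counts in replicate 1, or, for Pdk4, which had no counts, with its longest transcript. These words come from GENCODE M21 models, which can differ from the models behind the counts. Suclg2-201 held 2469 such words but was quantified at 2279 bases, and Pdp2-201 held 5643 words at 3485 bases.

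**Figure D4:**
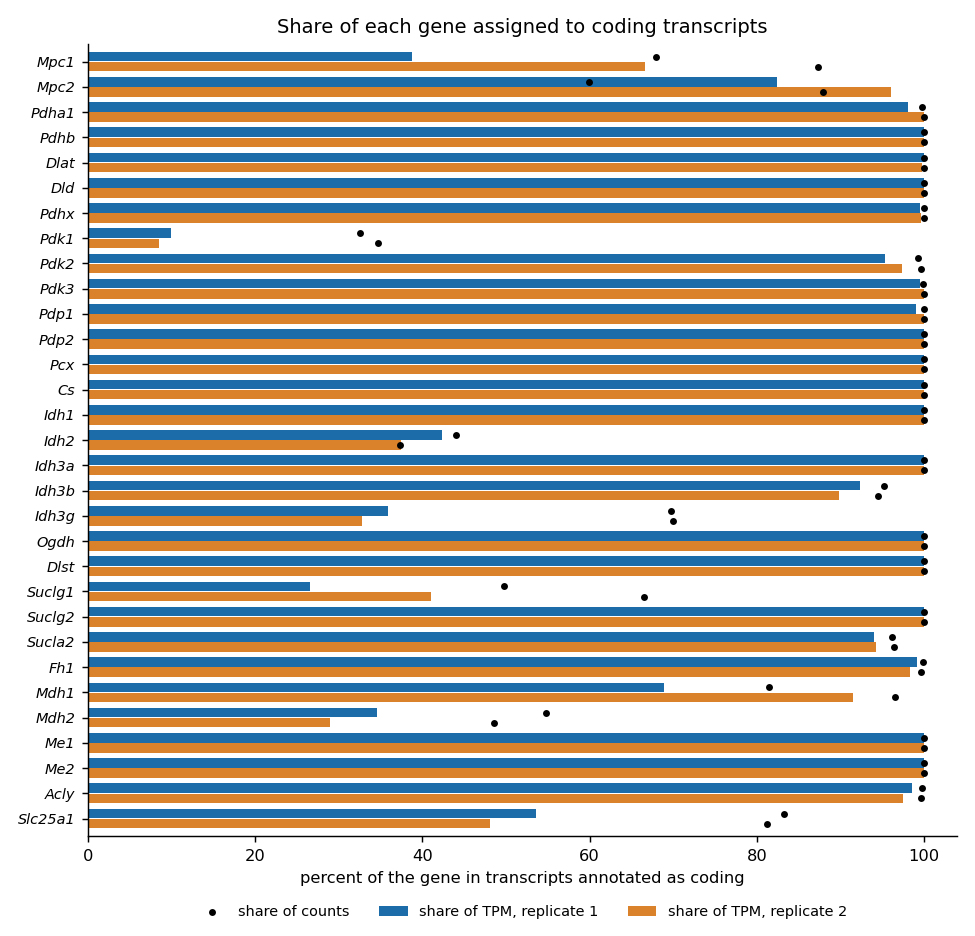
Percent of each gene's TPM (bars, from 0) and of its expected counts (black dots) assigned to transcripts annotated as coding, for the 31 genes with counts, by replicate. Most bars reach 90% or more, and those of Pdk1 end at 9.97% and 8.45%.

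Between the replicates, counts were compared after TMM scaling, and genes whose counts summed to 20 or more were called past 1.5-fold. With 1 library on each side there is no test. Of 31 genes that passed this count, Suclg1 was 2.13-fold, Dld 1.74-fold and Ogdh 1.68-fold higher in replicate 1. That is 3 of 31, against 10.8% of 10445 genes, a share near the background. In the other direction 0 of 31 passed, against 4.94% of all genes. Other genes of the same enzymes did not pass, with replicate 1 over replicate 2 at 1.45 for Suclg2, 1.11 for Sucla2 and 0.910 for Dlst. Mpc2 had the highest ratio in favour of replicate 2 among the 31, at 1.32-fold. The median log2 ratio was 0.23 for the 31 genes and 0.02 for all genes tested. The myeloid sum was higher in replicate 2, as given above, and its part in these differences was not tested.

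**Figure D5:**
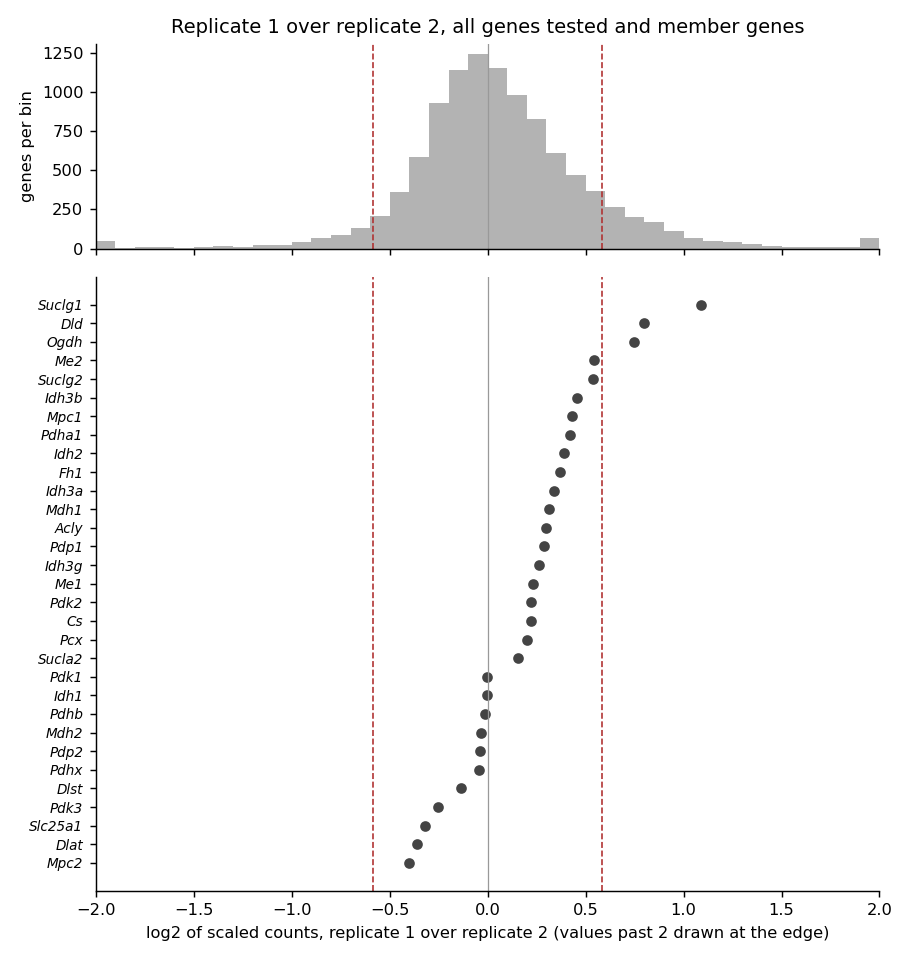
Log2 of scaled counts, replicate 1 over replicate 2, for 10445 genes (upper, genes per bin) and for the 31 member genes (lower). Dashed lines mark 1.5-fold. Suclg1, Dld and Ogdh lie right of the line at 1.5-fold, and no member lies left of its counterpart.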

How the data were processed

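Gene and transcript tables were deposited per library, derived from alignments to mm10 with annotation GENCODE M4, per the deposited description files. The sources used here do not give the aligner, the quantifier or the strand setting. Expected counts, per the file headers, are the authors' estimates of fragments per gene or transcript. The deposited TPM and FPKM values are, per the file headers, scaled by length and library. Transcript tables also give, per the file headers, each transcript's percent of its gene's TPM. Posterior mean TPM is deposited beside these.

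Names, types, coordinates and sequences came from GENCODE M21, same build, which matched 42462 of 43346 gene rows; unmatched rows held 0.157% of counts. Another 26345 rows without a mouse gene ID, with 9 counts in all, were left out. Protein sequences were not used here. The members, lists and pairs were chosen with earlier results of these data known. All 32 members are named, and of the other lists the 3 highest and 3 lowest genes by mean TPM, aconitase, succinate dehydrogenase and the genes that use succinyl-CoA for heme; a few of these are not reported here, and Mmut and Ldha were added. Me2 sequence is not shown.

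Pair intervals (95%) used log2(TPM + 1) and limma 3.58.1 variances squeezed along a trend over genes at 1 TPM or more in both libraries. The degrees of freedom were those of 1 gene, in place of the planned Welch-Satterthwaite value, which gave too narrow intervals on simulated data. Expected counts were rounded, scaled by TMM in edgeR 4.0.16 and compared past 1.5-fold with a prior of 0.5 counts. Coding-only TPM sums transcripts annotated as protein coding. GC adjustment used a smooth curve with span 0.3. The GC content of a gene was the unweighted mean over all its GENCODE M21 transcripts, with or without counts. R 4.3.3, DESeq2 1.42.0 (size factors only), Python 3.11.15, statsmodels 0.14.6, pandas 2.3.3, scipy 1.17.1 and numpy 2.4.6 were used. Total expected counts were 73681318 and 56056404. The labels number the libraries as biological replicates but do not state whether they were separate cultures. How much of the spread is technical is therefore not known. No test across samples and no p-value is given. Alternatives were FPKM, posterior means, pseudocounts of 0.1 and 0.5 TPM, no filter on low values, other count minimums and fold rules, other scalings, GC adjustment, totals without globin and mitochondrial genes, and leaving out each replicate. Coding-only TPM and the degrees of freedom were chosen after seeing the data.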

Additional observations from a re-analysis of the deposited data

How the results depend on the processing

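Of the 23 pair ratios, all kept their sign and their side of 0 with FPKM, posterior means, pseudocounts of 0.1 and 0.5 TPM and Welch-Satterthwaite degrees of freedom. GC adjustment turned Pdk1 over Pdk2 to 1.28 and Pdk3 over Pdk2 to 0.51. Coding transcripts alone turned Pdk1 over Pdk3 to -1.90 and Suclg1 over Suclg2 to -0.092. Leaving out 1 library put Pdk1 over Pdk2 between -0.31 and 0.25. Without a filter on low values the intervals of Suclg1 over Suclg2 and of Suclg1 over Sucla2 (-1.05, -2.25 to 0.15) came to hold 0. With the spread of the ratio itself, on 1 degree of freedom, 7 did, namely Ogdh over Dlst (-3.04, -8.25 to 2.18), Suclg1 over Sucla2 (-1.05, -7.30 to 5.19), Suclg1 over Suclg2, Mpc2 over Mpc1, Pdk3 over Pdk2, Me2 over Me1 and Alas2 over Suclg1. The median member level was 20.2 TPM when adult globin and mitochondrially encoded genes were left out of the total. It was 17.2 TPM after GC adjustment and 10.2 TPM over coding transcripts, where 1 member reached 100 TPM. The median of expressed genes was not recomputed in these settings, so these values do not place the members against other genes. The background at 10 and 100 TPM was 57.7% and 12.3% among expressed genes, which holds fewer genes by construction. Members past the fold rule in replicate 1 numbered 5 of 31 with library totals, where 12.8% of all genes tested passed. At 2-fold it was 1 of 31, where 3.11% of all genes tested passed. The cause of the other changes was not tested. Depth limits Pdk4, Idh2 and Pdp1. No paired analysis was possible because the series holds 1 group.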

Other observations

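Among genes that make pyruvate or exchange it with lactate, Ldha averaged 1348 ± 360 TPM, Pkm, the M-type pyruvate kinase, 547 ± 112 TPM and Pklr, the erythroid and liver pyruvate kinase, 122 ± 8.15 TPM (SD, n = 2). Of 9 genes listed for pyruvate sources and lactate, 7 reached 1 TPM and 6 reached 10 TPM in both libraries. Among protein-coding genes 35.3% and 20.4% did. Slc16a3, a lactate exporter gene, averaged 3.60 ± 0.728 TPM, whereas Slc16a1 on the same list had 34.74 and 30.55 TPM in replicates 1 and 2. Ldhb had 0.03 TPM in both libraries from 2 and 1 counts, and Ldhd had 1 and 0 counts. Pklr over coding transcripts had 39.8 and 27.8 TPM, against 128 and 117 TPM for the gene.

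Of 12 genes listed around glutamine, aspartate and their links to the cycle, 8 reached 1 TPM and 5 reached 10 TPM in both libraries. Not all of them feed the cycle. Asparagine synthetase, Asns, averaged 27.7 ± 4.53 TPM and Glud1, glutamate dehydrogenase, 22.9 ± 6.39 TPM (SD, n = 2). Among the lowest were Gpt2 with 7 and 0 counts and Pck1 with 0 counts in both. Of 9 carrier genes, 7 reached 1 TPM and 4 reached 10 TPM. Slc25a3, the phosphate carrier, averaged 166 ± 7.86 TPM, Slc25a11, the oxoglutarate carrier, 143 ± 2.28 TPM and Slc25a10, the dicarboxylate carrier, 25.9 ± 1.32 TPM. Over coding transcripts Slc25a11 had 18.6 and 15.3 TPM. Slc25a4, an ADP/ATP carrier, averaged 5.42 ± 0.106 TPM, Slc25a13, an aspartate-glutamate carrier, 0.445 ± 0.163 TPM and Nnt, which couples NADPH formation to the proton gradient, 0.215 ± 0.106 TPM. Over all 7 lists of related genes, 45 of 64 reached 1 TPM and 31 reached 10 TPM in both libraries. For each list the background is 35.3% of protein-coding genes at 1 TPM and 20.4% at 10 TPM. Among expressed genes 57.7% reached 10 TPM. The lists were chosen with earlier results of these data known, so these counts do not set them apart.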
